A study of Mus musculus with 12 samples.

Results

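Livers of mice that ate a NASH diet while receiving oleic acid were compared with livers of chow-fed mice, gene by gene, by bulk RNA sequencing. The members are the 6 libraries that the labels place in these 2 groups, 3 per group, out of 12 libraries in 4 groups, and 14469 of the 24983 genes in the count table had enough reads to be tested. All animals were C57BL/6J mice (C57BL/6 in the strain field), and each library is the liver of 1 mouse with its own ear tag. Chow mice ate standard chow. OA mice ate for 24 weeks a diet rich in fructose, cholesterol and both trans and saturated fat, with 40% of calories from fat, meant to bring on nonalcoholic steatohepatitis (NASH, a fatty liver with inflammation and scarring). They carried a minipump under the skin that released oleic acid (OA), dissolved in polyethylene glycol, at 5 mg/kg/day. A group on the same diet whose pump held polyethylene glycol alone (vehicle) is used below for reference, and the fourth group received nitro-oleic acid. The labels name no pump for the chow mice, so diet, pump, solvent and oleic acid cannot be told apart in the comparison with chow. The sources used here give neither sex nor age.

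In steatohepatitis, fat-laden hepatocytes are accompanied by recruited monocyte-derived macrophages, by loss of part of the resident Kupffer cells, and by activation of stellate cells, the pericytes that deposit collagen. Dietary cholesterol lowers the processing of SREBP2, the factor that drives the genes of cholesterol synthesis. Hepatocytes under chronic stress often lose part of their specialised programme, such as bile acid synthesis, drug metabolism and the genes set by growth hormone. Oleic acid is the common monounsaturated fatty acid of olive oil and of the liver's own triglycerides, and here it is the parent compound of the nitro-fatty acid under study.

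Sequencing depth ran from 8462590 counts in chow replicate 1 to 19082770 in chow replicate 3, with the OA libraries between 16847880 and 17379756. Albumin (Alb), the defining product of hepatocytes, had the highest count in each library. On the first principal component, which held 46.4% of the variance over all 12 libraries, the chow libraries lay between -71.87 and -44.72. OA replicates 1 and 2 lay at 49.62 and 39.99. OA replicate 3 stood apart from them at -13.48, inside the range of the nitro-oleic acid libraries (-26.77 to 10.28) and outside that of the vehicle libraries (22.46 to 54.36). Results that rest on this library are therefore given with and without it. Scaling by trimmed mean of M values (TMM) centred the tested genes at a median log2 fold change of -0.01, against 0.42 with library size alone, so changes are relative to the TMM scale. Levels are given as CPM, each gene's counts scaled to the library's TMM-adjusted total, in the order of replicates 1, 2 and 3.

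The NASH diet with OA changed 1238 genes, 8.56% of those tested (edgeR's quasi-likelihood test, Benjamini-Hochberg adjusted p under 0.05, "called" below). Of these, 916 rose (6.33% of tested genes) and 322 fell (2.23%), and 884 changed by more than 1 on the log2 scale. Rises made up 74% of calls. List counts below are to be set beside the 6.33% and 2.23% of all genes tested. Of the 1238 called genes, 1208 had CPM values that did not overlap between the 2 groups, as did 4477 (30.9%) of all genes tested. Calls and overlap come from the same 6 libraries, so the first count largely follows from the calls. Without OA replicate 3, 2232 of 14853 genes were called (15%), 1400 higher and 832 lower, so rises made up 62.7%. That count held 1193 of the 1238 genes and 1039 others. List counts without OA replicate 3 are to be set beside the 1400 and 832 of 14853 genes. Leaving out OA replicate 1 or 2 instead left 347 or 379 calls, of which 83% or 85% were rises. Leaving out chow replicate 1 or 2 left 465 or 567. Scaling by library size alone called 3776 genes, 96.6% of them higher. Of the 1238 genes, 279 were also called under every one of 11 alternatives, which include leaving out each library in turn, 238 of them higher and 41 lower. A call is said below to hold where it remained on leaving out each of the 6 libraries in turn. Over the 177 called genes of the lists and of the largest changes, losses were most frequent without OA replicate 1 (94 genes), OA replicate 2 (86), chow replicate 1 (84) and chow replicate 2 (70). They were fewer without chow replicate 3 (51) and OA replicate 3 (5).

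**Figure D1:**
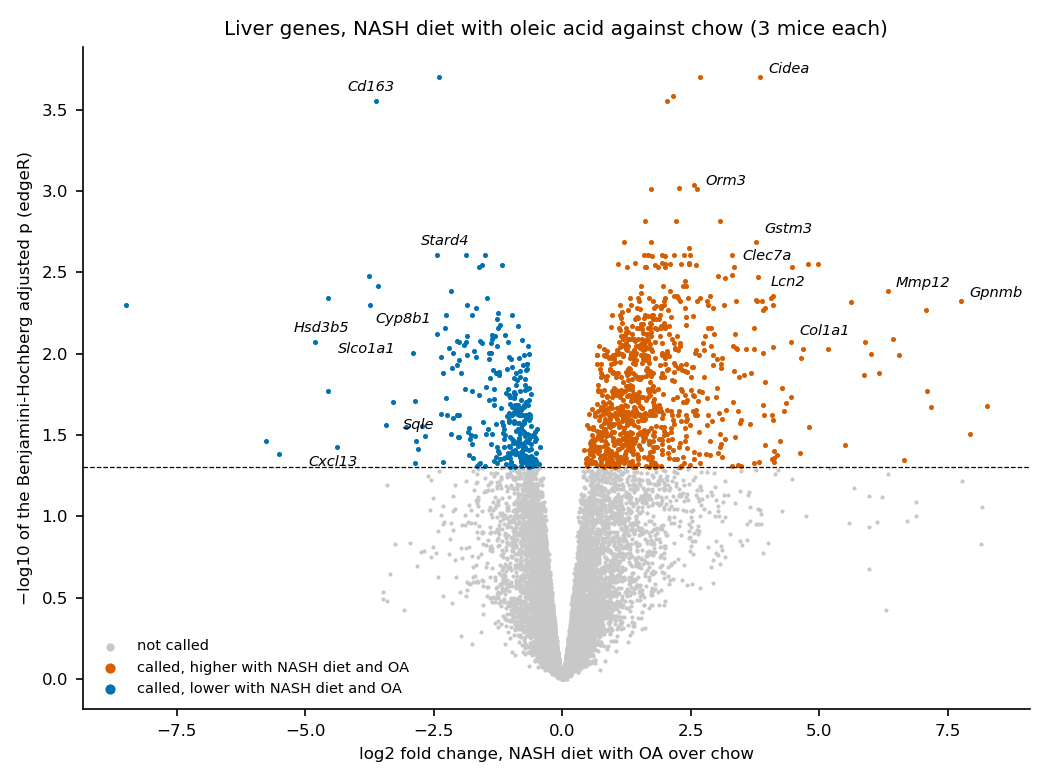
Each point is 1 of the 14469 genes tested, by its log2 fold change (NASH diet with OA over chow, 3 mice each) and the negative log10 of its edgeR adjusted p. The dashed line is the threshold of 0.05, with 916 genes higher (orange) and 322 lower (blue) above it, and fitted fold changes of genes with few reads in a group are not bounds.

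**Figure D2:**
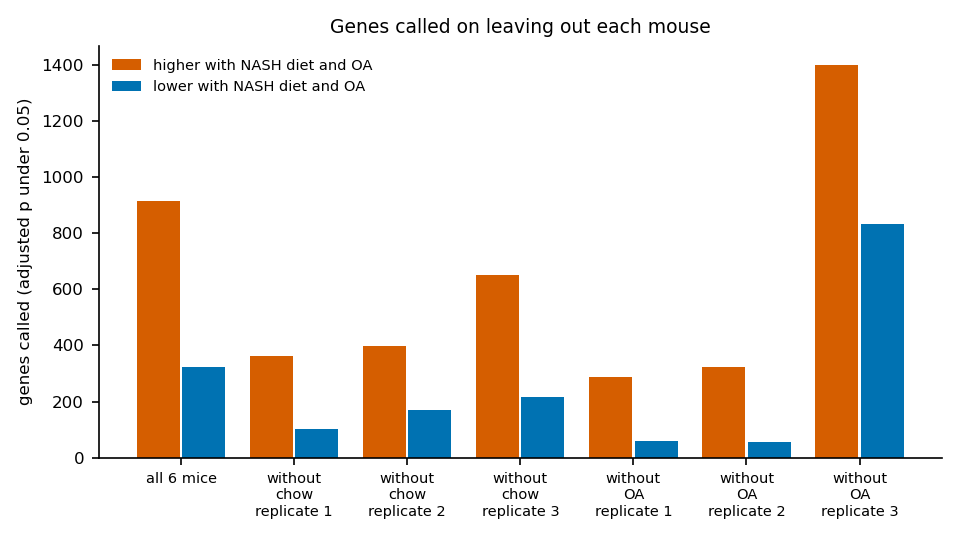
Bars give the number of genes called higher (orange) and lower (blue) with all 6 mice and after leaving out each mouse. The counts were lowest without OA replicate 1 (288 higher, 59 lower) and without OA replicate 2 (322 higher, 57 lower), and highest without OA replicate 3 (1400 higher, 832 lower).

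The 10 largest rises, taken among called genes whose CPM did not overlap between the groups, included Gpnmb, Mmp12, Timp1 and Mmp13. Gpnmb, a membrane glycoprotein that lipid-laden macrophages make (ENSMUSG00000029816, chromosome 6, 49036546 to 49070929, GRCm38), stood at 0.7798, 0.206 and 0.06403 CPM in chow and at 98.3, 58.2 and 11.7 with OA. Replicate 3 was the lowest of the OA group. The log2 fold change was 7.75 ± 1.26 (SE, adjusted p = 0.00475). Mmp12, the macrophage elastase (ENSMUSG00000049723, chromosome 9, 7344381 to 7369499), stood at 0.468, 1.101 and 0.448 CPM in chow and 91.3, 63.4 and 16.98 with OA, a log2 rise of 6.33 ± 0.99 (adjusted p = 0.00412). The heart-type fatty acid binding protein Fabp3 had 0 counts in the 3 chow libraries and 124 with OA, at least 27.1-fold higher against a floor of 3 counts over the chow group. A further 3 genes had 1 or 2 counts over the chow libraries, so no fold is given: Timp1, the inhibitor of matrix proteases (189 counts with OA), Gipc2 (289 counts) and the fatty acid elongase Elovl7 (252 counts). The remaining 4 of the 10 largest rises were Sdcbp2 (5.89 on the log2 scale), the ephrin receptor Ephb2 (5.61), the adaptor Shc2 (5.5) and the collagenase Mmp13 (5.18). In each of these 10 genes OA replicate 3 was the lowest OA library. That it lay above every chow library was a condition for choosing these genes. The calls of Fabp3, Gipc2 and Shc2 were lost on leaving out any 1 library other than OA replicate 3, and those of Timp1 and Elovl7 on leaving out some libraries. The other 5 calls held.

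The largest falls, also taken among called genes without overlap between the groups, included Hsd3b5, Cxcl13 and Cd163. Hsd3b5, a steroid dehydrogenase of male mouse liver (ENSMUSG00000038092, chromosome 3, 98618634 to 98630252), stood at 43.8, 57.5 and 68.4 CPM in chow and at 0.102, 0.0513 and 6.14 with OA, a log2 change of -4.82 ± 0.91 (adjusted p = 0.00851). OA replicates 1 and 2 had lost nearly all of it, while replicate 3 kept a level between them and chow. Cd163, through which resident macrophages take up haemoglobin (ENSMUSG00000008845, chromosome 6, 124304656 to 124330527), stood at 15.9, 18.9 and 15.3 CPM in chow and 2.14, 0.769 and 1.14 with OA. Its log2 change of -3.62 ± 0.35 (adjusted p = 0.000282) held. Cxcl13, the chemokine that attracts B cells, stood at 2.03, 1.72 and 4.29 CPM against 0.204, 0.102 and 0.0602 (log2 -4.37 ± 1.19, adjusted p = 0.0376), and its call was lost on leaving out any 1 of the 6 libraries. Moxd1, a monooxygenase-like protein, had 661 counts in chow, which differed widely (5.46, 1.93 and 38.3 CPM), and 2 with OA, so no fold is given. Others were the trefoil peptide Tff3 (-3.59), the scavenger receptor Marco (-3.3), the organic anion carrier Slco1a1 (-2.91), the isoprenoid enzyme Idi1 (-2.86) and Serpina1e (-3.04), all on the log2 scale. Serpina1e is one of several near-identical Serpina1 copies, so the share of reads given to it is uncertain. The calls of Marco, Idi1 and Serpina1e were lost without OA replicate 2 and without 2 of the other libraries.

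Scar matrix rose broadly. Of 16 collagen genes tested, 12 rose (75%, against 6.33% of all genes tested) and 0 fell, with a median log2 fold change of 1.51. Col1a1, the main chain of scar collagen (ENSMUSG00000001506, chromosome 11, 94936224 to 94953042), stood at 2.03, 0.963 and 1.92 CPM in chow and 57.95, 37.7 and 8.43 with OA, a log2 rise of 4.45 ± 0.84 (adjusted p = 0.00844). Col3a1, its partner in young scar, stood at 9.67, 14.1 and 10.5 and 204, 108 and 35.1 CPM (log2 3.33 ± 0.64, adjusted p = 0.009). The groups were well apart in each gene, with OA replicate 3 the lowest of the OA livers. Col8a1, a short-chain collagen of vessels and activated stellate cells, rose by 3.4. The basement membrane chain Col4a1 stood at 13.6, 21.6 and 20.9 CPM in chow and 81.03, 62.5 and 30.6 with OA (log2 1.62, adjusted p = 0.0194). Col14a1, which binds to the surface of collagen fibrils, moved least among the called collagens, from 41.02, 40.8 and 40.5 to 94.5, 86.6 and 73.1 CPM, and here replicate 3 was close to the other OA livers. Without OA replicate 3, 14 collagens rose. The calls of Col1a1, Col3a1, Col8a1 and Col14a1 held, and that of Col4a1 was lost without chow replicate 1 or 2 or OA replicate 1 or 2.

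Among the noncollagenous matrix genes, 8 of 18 rose and 0 fell (median 1.56). They included Thbs1, an activator of latent TGF-beta, at 0.312, 0.5505 and 0.192 CPM in chow and 7.08, 5.69 and 1.56 with OA (log2 3.73 ± 0.73, adjusted p = 0.00938). Tenascin C (Tnc), a glycoprotein of healing wounds, rose by 2.5, and dermatopontin (Dpt) by 2.54. The fibril organisers Lum and Dcn were not called (adjusted p = 0.0764 and 0.0831), though Dcn was without OA replicate 3 (0.0179). OA replicate 3 lay within the chow range for Lum, at 14.0 CPM, and close to the highest chow liver for Dcn, at 267.9. Of 17 genes of collagen processing and matrix proteolysis, 7 rose and 0 fell (median 1.72). Besides Mmp12, Mmp13 and Timp1, they were the cross-linking enzymes Lox and Loxl2, the procollagen peptidase Adamts2 and the gelatinase Mmp2. Loxl2 stood at 0.7798, 1.38 and 1.34 CPM in chow and 7.54, 4.31 and 3.19 with OA. Leaving out OA replicate 3 raised these counts to 11 of 18 and 11 of 17. Thbs1 and Loxl2 held, whereas the call of Tnc was lost without chow replicate 2, OA replicate 1 or OA replicate 2. Those of Dpt, Lox and Mmp2 were lost without any 1 library other than OA replicate 3.

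Markers of stellate cells, the cells that make most of this matrix, rose in 5 of 13 (median 0.86), against 6.33% of all genes tested. Without OA replicate 3, 7 rose. In bulk tissue, more cells of a type and more RNA per cell cannot be told apart. Vimentin (Vim), the filament of mesenchymal cells, stood at 17.9, 15.3 and 19.98 CPM in chow and 65.6, 54.03 and 33.5 with OA (log2 1.53 ± 0.23, adjusted p = 0.00382). S100a6 rose by 1.58 and Cygb, the globin of quiescent and activated stellate cells, by 1.19. Acta2, smooth muscle actin, the marker of contractile myofibroblasts, was low throughout, at 0, 0.688 and 0.256 CPM in chow and 3.77, 2.87 and 1.56 with OA (adjusted p = 0.0419). The receptors for platelet-derived growth factor Pdgfra and Pdgfrb were not called (adjusted p = 0.0545 and 0.0601), but were without OA replicate 3 (0.028 and 0.0175). In the TGF-beta pathway, the main fibrogenic signal, 3 of 14 genes rose (21.4%, against 6.33% of all genes tested). Without OA replicate 3, 6 rose, as did 1400 of all 14853 genes tested. The 3 called with all 6 libraries were the receptor Tgfbr2 (0.96) and the ligands Tgfb1 (1.08) and Tgfb2 (2.17), with adjusted p of 0.0271 to 0.0443. Of the calls with all 6 libraries named in this paragraph only Vim held. The others were lost without any of chow replicates 1 and 2 and OA replicates 1 and 2.

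Resident macrophage genes moved in both directions. Of 14 tested, 6 rose and 3 fell, with and without OA replicate 3. The complement genes C1qa, C1qb and C1qc rose, C1qb from 34.5, 40.7 and 64.9 CPM in chow to 143, 153 and 88.9 with OA (log2 1.45 ± 0.24, adjusted p = 0.00527) and C1qc by 1.18. Cd5l, a secreted protein of Kupffer cells, stood at 72.8, 137 and 164 CPM in chow and 359.9, 381 and 245 with OA, the receptor Csf1r rose by 1.04, and Adgre1 (F4/80) by 1.25. Against these, 3 scavenger and uptake receptors fell. Besides Cd163, Timd4, which binds dying cells, stood at 5.303, 7.91 and 12.04 CPM in chow and 3.42, 1.18 and 0.662 with OA (log2 -2.27 ± 0.52, adjusted p = 0.0187). Marco, which binds bacteria, stood at 6.86, 21.1 and 29.6 against 4.43, 0.615 and 0.843 CPM (adjusted p = 0.0199). In these 3 genes OA replicate 3 was about as low as replicate 2, unlike its position in the matrix genes. The calls of Cd163, C1qb, C1qc and Cd5l held, while those of Csf1r, Adgre1, Timd4 and Marco were lost without OA replicate 2 and some other libraries.

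Genes of recruited and lipid-associated macrophages had the largest median of the lists, with 13 of 17 higher, 0 lower and a median log2 fold change of 2.83, and 14 higher without OA replicate 3. Clec7a, the beta-glucan receptor dectin-1, stood at 4.05, 8.26 and 8.71 CPM in chow and 92.04, 93.9 and 28.5 with OA (log2 3.3 ± 0.45, adjusted p = 0.00249). Itgax, the integrin CD11c, stood at 0.624, 0.619 and 0.704 and 15.2, 14.2 and 3.79 CPM (log2 4.07 ± 0.65). Trem2, the lipid receptor that defines these macrophages (ENSMUSG00000023992, chromosome 17, 48346401 to 48354147), stood at 0.7798, 1.24 and 1.15 and 21.3, 18.6 and 5.12 CPM (log2 3.76 ± 0.61, adjusted p = 0.00465). In all 3 genes the groups were separate, and OA replicate 3 lay far below the other OA livers. The chemokine receptors of incoming monocytes rose too, Ccr2 by 2.94 and Cx3cr1 by 3.78. Lysosomal and lipid-handling members rose as well, among them Lpl (2.83), Lgals3 (3.15), Cd63 (3.09) and Ctsk (2.15). The members not called were Itgam, Ly6c2, Ctsd and Fabp5 (adjusted p = 0.0761, 0.189, 0.231 and 0.844). Itgam was called without OA replicate 3 (0.0243). The summed CPM of the list was 288.5 to 336.4 in chow and 1104, 964.9 and 449.8 with OA. With all 6 libraries, calls of the genes named here held except 2. Cd63 was lost without chow replicate 2 or OA replicate 1, and Ctsk without any 1 library other than chow replicate 1 and OA replicate 3.

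Antigen presentation on MHC class II rose in 8 of 9 genes, with or without OA replicate 3 (median 2.35). H2-Eb1 stood at 14.8, 14.3 and 31.4 CPM in chow and 119.5, 148 and 71.95 with OA (log2 2.47 ± 0.32, adjusted p = 0.00225). H2-Aa and H2-Ab1, the chains of I-A, both rose by 2.46 (adjusted p = 0.00279 and 0.0028). Ciita, the factor that switches these genes on, was low, at 0, 0.413 and 0.768 CPM in chow and 4.08, 4.15 and 2.29 with OA (adjusted p = 0.00696). Chow replicate 3 was the highest chow liver in H2-Eb1, H2-Aa and H2-Ab1 and remained below all OA livers. Of 15 lymphocyte genes 2 rose (13.3% called, against 8.56% of all genes tested), with a median of 0.49 for the list. They were the cytotoxic granule gene Nkg7 (0, 0.275 and 0.448 against 0.968, 2.61 and 1.505 CPM, adjusted p = 0.0227) and Cd8a (2.42, adjusted p = 0.0253). Of 5 neutrophil genes with enough reads none was called by edgeR with all 6 libraries, with 1 at an unadjusted p under 0.05 and 1 called by DESeq2. Csf3r had the lowest p (log2 1.29, adjusted p = 0.0567, or 0.0305 without OA replicate 3). The defining neutrophil gene Ly6g had 1 count in chow and 1 with OA. The calls of the class II genes named here held, and both lymphocyte calls were lost without chow replicate 1, chow replicate 2 or OA replicate 2.

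Chemokines and their receptors rose in 13 of 21 genes and fell in 1, Cxcl13 (median 1.67). Ccl5, which attracts T cells, stood at 0.936, 0.275 and 0.768 and 3.11, 8.51 and 3.61 CPM (log2 3.03 ± 0.45). Ccl6, a macrophage chemokine, stood at 8.89, 13.3 and 14.2 and 64.7, 55.98 and 26.2 CPM (log2 1.99 ± 0.28). The order of the OA livers differed, with Ccl5 highest in replicate 2 and Ccl6 in replicate 1. The monocyte attractant Ccl2 rose by 3.1 and the T-cell attractants Cxcl9 and Cxcl16 by 1.66 and 1.34. Of 17 interferon response genes 4 rose (23.5%, against 6.33% of all genes tested, with a list median of 0.21), namely Oasl2 (4.52, 5.37 and 5.76 against 11.7, 11.8 and 9.99 CPM, log2 1.08 ± 0.16, adjusted p = 0.0028), Gbp2 (1.28), Irf8 (1.38) and Ifit2 (1.11). The calls of Ccl2, Irf8 and Ifit2 were lost without OA replicate 2 and some other libraries, and the other calls named here held, apart from Cxcl13.

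Bile duct genes differed widely between the OA livers. Only Spp1 (osteopontin), which duct cells and macrophages both make, was called among 11 cholangiocyte genes with all 6 libraries (9.09%, against 8.56% of all genes tested). It stood at 35.9, 26.3 and 21.96 CPM in chow and 373, 206 and 31.01 with OA (log2 2.87 ± 0.76, adjusted p = 0.0345), and its call was lost on leaving out any 1 library other than OA replicate 3. Replicate 3 lay within the chow range and the other OA livers far above it. Epcam, the surface marker of duct cells, stood at 1.09, 0.482 and 0.3201 CPM in chow and 8.41, 3.02 and 0.482 with OA (adjusted p = 0.0937). Without OA replicate 3, 6 of the 11 genes rose. The summed CPM of the list was 46.4 to 65.4 in chow and 450.5, 252.4 and 56.4 with OA. None of 13 endothelial genes was called by edgeR or by DESeq2 with all 6 libraries, with 1 at an unadjusted p under 0.05 and a median of 0.18.

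Cell cycle genes rose in 7 of 19 (36.8%, against 6.33% of all genes tested, median 1.14). Mki67, a marker of dividing cells, stood at 1.72, 1.996 and 1.67 CPM in chow and 7.29, 6.51 and 4.52 with OA (log2 1.76 ± 0.31, adjusted p = 0.00613). Top2a, which untangles replicated DNA, rose by 1.8. Ccnd1 (cyclin D1), the regulator of entry into the cycle, stood at 4.99, 9.08 and 9.73 CPM in chow and 38.99, 21.99 and 36.4 with OA (log2 1.99 ± 0.41, adjusted p = 0.0107). In Ccnd1 OA replicate 3 was nearly as high as replicate 1, whereas in Mki67 it was the lowest of the OA livers. The replication licensing genes Mcm2, Mcm3 and Mcm6 rose by 1.27, 1.22 and 1.14. Their relatives Mcm4, Mcm5 and Mcm7 were not called (log2 0.29, 1.11 and 0.11, adjusted p = 0.535, 0.104 and 0.745). Mki67 and Top2a held, while the calls of Ccnd1, Mcm2, Mcm3 and Mcm6 were lost without chow replicate 1. Those of Mcm2, Mcm3 and Mcm6 were also lost without chow replicate 2 or OA replicate 1.

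**Figure D3:**
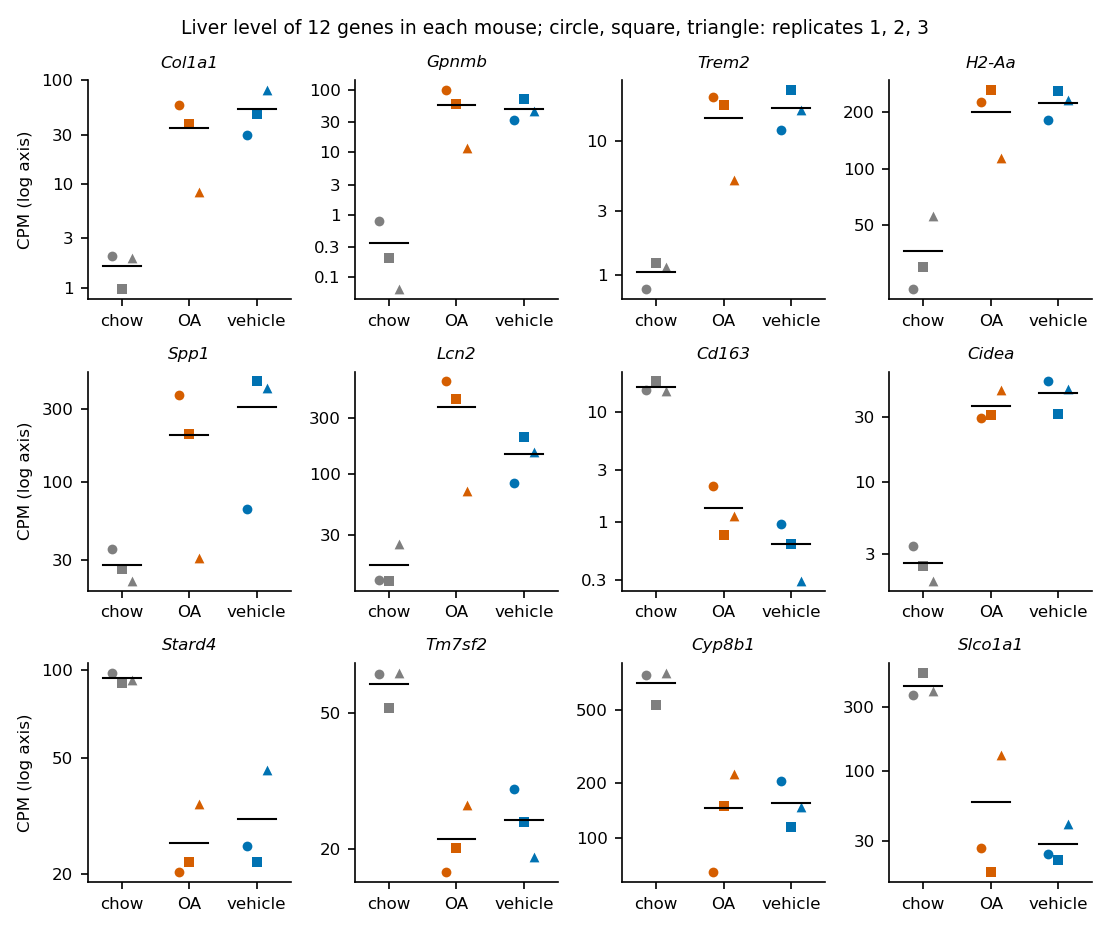
CPM on a log axis of 12 genes in each mouse of the chow (grey), OA (orange) and vehicle (blue) groups, with the group mean as a line and marker shapes for replicates 1 to 3. OA replicate 3 (orange triangle) is the lowest OA mouse in Col1a1, Gpnmb, Trem2, H2-Aa, Spp1 and Lcn2 and the highest in Cidea, Stard4, Tm7sf2, Cyp8b1 and Slco1a1.

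Of 17 lipid droplet genes tested, 4 rose and 1 fell (29.4% called, against 8.56% of all genes tested, median 0.03). Cidea, which fuses lipid droplets and is scarce in healthy liver (ENSMUSG00000024526, chromosome 18, 67343604 to 67367785), stood at 3.43, 2.48 and 1.92 CPM in chow and 29.6, 31.1 and 47.1 with OA. The log2 rise of 3.85 ± 0.34 had an adjusted p of 0.0002, with 6.09e-05 to 0.0025 on leaving out each library. Its relative Cidec (Fsp27) stood at 49.9, 32.1 and 38.99 CPM in chow and 156, 146 and 96.7 with OA (log2 1.73 ± 0.22, adjusted p = 0.00206). The droplet coat genes Plin4 and Plin3 rose by 2.41 and 0.75. G0s2, which inhibits the lipase ATGL, stood at 317, 213 and 114 CPM in chow and 68.5, 119 and 85.1 with OA (log2 -1.24 ± 0.34, adjusted p = 0.041). OA replicate 3 was the highest OA liver in Cidea and the lowest in Cidec. Cidec and Plin4 held as well, and the calls of Plin3 and G0s2 were lost without chow replicate 1 or 2 or OA replicate 1 or 2. That of G0s2 was also lost without OA replicate 3 (adjusted p = 0.0575), with library size alone and with only the 2 groups in the fit.

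Fatty acid uptake genes moved in both directions, with 4 of 15 higher and 3 lower (46.7% called, against 8.56% of all genes tested). The median was -0.23, or 0.19 with library size alone. Vldlr, a lipoprotein receptor, stood at 2.65, 5.16 and 1.79 CPM in chow and 13.3, 14.9 and 10.6 with OA (log2 1.99 ± 0.29, adjusted p = 0.00295). Fabp4, the binding protein of adipocytes and macrophages, stood at 6.24, 9.15 and 6.79 CPM in chow and 90.8, 40.6 and 16.4 with OA (log2 2.72 ± 0.61, adjusted p = 0.0172). Pparg, the receptor that drives fat storage, rose by 0.88 (adjusted p = 0.0387). Slc27a1 and Acsl5, which activate fatty acids at entry, fell by 1.13 and 0.6, calls that were lost with library size alone. Vldlr held, and the other calls of this list named here were lost without OA replicate 1 and some other libraries. The fatty acid translocase Cd36 stood at 172, 383 and 114 CPM in chow and 482, 477 and 465 with OA. All 3 OA livers were alike and above all chow livers, but the chow livers differed among themselves more than 3-fold and the adjusted p was 0.0731.

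Of 21 genes of lipid synthesis, 4 rose and 1 fell (23.8% called, against 8.56% of all genes tested, median 0.11). Scd2, a desaturase isoform of brain and other non-hepatocyte tissue, stood at 4.37, 5.37 and 4.99 CPM in chow and 24.4, 20.8 and 11.6 with OA (log2 1.93 ± 0.27, adjusted p = 0.00279). Scd1, the main hepatic desaturase, which makes oleic acid from stearic acid, was not called (log2 0.72 ± 0.21, adjusted p = 0.0545). Srebf1, the gene of the lipogenic factor SREBP1, stood at 36.8, 50.03 and 45.6 CPM in chow and 97.3, 102 and 93.3 with OA (log2 1.14 ± 0.28, adjusted p = 0.0237), alike in the 3 OA livers, but the call was lost without any 1 library other than OA replicate 3. Mogat1, which makes diacylglycerol, rose by 1.34, and Elovl2, an elongase of polyunsaturated fatty acids, stood at 668, 941 and 1038 against 359, 446 and 567 CPM (log2 -0.95, adjusted p = 0.0172, not called with library size alone). Scd2 and Mogat1 held. Of 22 genes of fatty acid oxidation 1 rose and 1 fell (9.09% called, against 8.56% of all genes tested). The median was -0.36, or 0.04 with library size alone. Without OA replicate 3, 10 fell, as did 832 of all 14853 genes tested. The call of the thiolase Acaa2 (-0.68 ± 0.2, adjusted p = 0.0481) was lost under most alternatives. Pdk4, which spares glucose, rose by 1.58 (adjusted p = 0.0345, lost without OA replicate 1 or any chow library), highest in OA replicate 1 (12.9, 7.71 and 9.28 CPM in chow, 55.6, 14.2 and 17.8 with OA). The omega-hydroxylase Cyp4a14, a PPAR-alpha target with close Cyp4a relatives, stood at 5303, 6111 and 5188 CPM in chow and 1223, 1001 and 3072 with OA. Its adjusted p was 0.0512 with all 6 libraries, so it was not called. On leaving out 1 library it ran from 0.00622, without OA replicate 3, to 0.21.

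Cholesterol synthesis fell as a pathway, with 13 of 23 genes lower and 0 higher (median -0.91, or -0.47 with library size alone), and again 13 lower without OA replicate 3. In the nucleus SREBP2 acts on these promoters next to NF-Y, a factor that binds the letters CCAAT. RefSeq promoter windows (GRCm38.p6, 250 bases before to 50 after the start) were found for 16 of the 23 genes, and CCAAT stood on one strand or the other in 16 of these 16 genes. The same letters stood in 42.8% of the 10517 tested genes with a window and in 37.4% of all 32851 windows. A fuller sterol element, TCACNCCAC, was found in 1 of the 16, Hmgcs1, against 1.45% of tested genes. The E-box CACGTG was found in 4 of the 16 (11.5% of tested genes). Windows of 4 genes that fell are printed 5′ to 3′ on the gene's strand to show these shared letters, with CCAAT, or ATTGG where it lies on the other strand, in capitals. They lie at chr19:6067801-6068100, chr1:169969156-169969455, chr5:4104648-4104947 and chr8:64733529-64733828, in the order printed and all on the minus strand.
Tm7sf2: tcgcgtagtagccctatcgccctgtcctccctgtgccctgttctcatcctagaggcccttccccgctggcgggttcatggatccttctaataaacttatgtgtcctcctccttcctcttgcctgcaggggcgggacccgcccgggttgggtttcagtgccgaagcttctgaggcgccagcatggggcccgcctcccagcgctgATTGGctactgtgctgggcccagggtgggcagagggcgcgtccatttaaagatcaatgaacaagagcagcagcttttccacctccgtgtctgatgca
Hsd17b7: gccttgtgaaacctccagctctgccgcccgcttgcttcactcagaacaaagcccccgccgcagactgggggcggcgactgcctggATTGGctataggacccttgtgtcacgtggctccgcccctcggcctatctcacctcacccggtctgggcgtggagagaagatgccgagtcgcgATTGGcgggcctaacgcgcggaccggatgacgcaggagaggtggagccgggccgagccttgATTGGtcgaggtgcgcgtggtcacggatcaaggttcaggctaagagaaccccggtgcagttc
Cyp51: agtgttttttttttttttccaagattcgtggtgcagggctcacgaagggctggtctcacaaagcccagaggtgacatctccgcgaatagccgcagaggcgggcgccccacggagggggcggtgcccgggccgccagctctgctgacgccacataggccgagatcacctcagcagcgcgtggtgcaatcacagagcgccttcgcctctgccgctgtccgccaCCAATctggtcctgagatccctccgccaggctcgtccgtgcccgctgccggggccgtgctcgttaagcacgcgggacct
Msmo1: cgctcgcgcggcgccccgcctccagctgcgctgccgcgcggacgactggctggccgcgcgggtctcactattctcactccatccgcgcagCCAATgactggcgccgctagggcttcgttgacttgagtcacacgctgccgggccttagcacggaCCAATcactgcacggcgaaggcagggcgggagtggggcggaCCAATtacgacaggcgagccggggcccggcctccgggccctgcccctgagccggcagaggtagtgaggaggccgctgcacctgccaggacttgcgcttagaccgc
Tm7sf2 and Cyp51 hold the letters once, and Hsd17b7 and Msmo1 hold them 3 times. A match is a description of the sequence and does not show that a factor was bound there.

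The sterol reductase Tm7sf2 (ENSMUSG00000024799, chromosome 19, 6062821 to 6068373) stood at 64.7, 51.7 and 65.2 CPM in chow and 17.1, 20.2 and 26.9 with OA (log2 -1.5 ± 0.2, adjusted p = 0.00249). Stard4, which carries cholesterol between membranes, stood at 97.8, 90.7 and 92.5 and 20.3, 21.99 and 34.7 CPM (log2 -1.87 ± 0.26, adjusted p = 0.00249). Hsd17b7, which acts in both sterol and steroid synthesis, stood at 51.3, 41.7 and 40.6 and 21.8, 23.2 and 28.2 CPM (log2 -0.86 ± 0.15). The chow livers were close together in these 3 genes, and their calls held. In several pathway enzymes chow replicate 1, the shallowest library, was far above the other chow livers. Squalene epoxidase (Sqle), a rate-limiting step, stood at 35.4, 7.43 and 7.299 CPM in chow and 3.62, 4.05 and 3.43 with OA (log2 -2.12 ± 0.52, adjusted p = 0.025). Leaving out chow replicate 1, OA replicate 1 or OA replicate 2 lost this call. Msmo1 stood at 278, 94.8 and 56.4 and 25.1, 28.8 and 29.2 CPM, Cyp51 at 86.6, 32.4 and 34.1 and 14.9, 12.8 and 13.6 CPM. Idi1 stood at 86.7, 18.3 and 19.3 and 6.88, 6.15 and 3.67 CPM, and its call was lost without the same libraries. Insig1, which holds SREBP in the endoplasmic reticulum, fell by 1.43, also lost without those libraries, and Msmo1 was lost without OA replicate 1. OA replicate 3 was the OA liver nearest chow in Tm7sf2, Stard4 and Hsd17b7, while over the 23 genes the median differences from chow were -0.86, -0.93 and -0.98 on the log2 scale in OA replicates 1, 2 and 3.

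**Figure D4:**
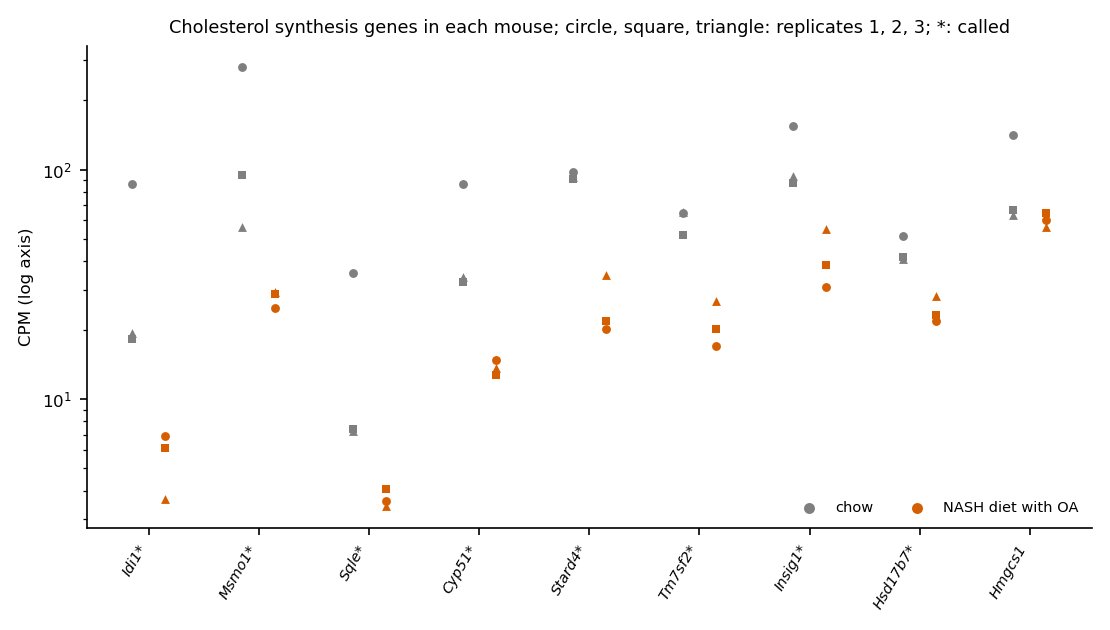
CPM on a log axis of the cholesterol synthesis genes named in the text in each chow (grey) and OA (orange) mouse, ordered by fold change, with marker shapes for replicates 1 to 3 and asterisks on genes called lower. Chow replicate 1 (grey circle) lies above the other chow mice in each gene shown except Tm7sf2, as in Sqle (35.4 against 7.43 and 7.30).

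Among sterol efflux genes, the targets of the oxysterol receptor LXR, 2 of 11 rose (18.2%, against 6.33% of all genes tested, median 0.27). The cholesterol exporter Abcg1 stood at 4.52, 7.16 and 6.98 CPM in chow and 24.8, 20.2 and 13.7 with OA (log2 1.63 ± 0.24, adjusted p = 0.00295). Soat1, which esterifies cholesterol in macrophages, rose by 1.14 (adjusted p = 0.00782). Bile acid synthesis and transport lost 4 and gained 2 of 18 genes (33.3% called, against 8.56% of all genes tested). The median was -0.23, or 0.19 with library size alone. Cyp8b1, which sets the share of cholic acid, stood at 780.1, 533 and 799 CPM in chow and 65.3, 149.8 and 226 with OA (log2 -2.26 ± 0.39, adjusted p = 0.00579). Cyp7b1, of the alternative pathway, stood at 242, 227 and 270.3 and 43.1, 37.6 and 123 CPM (log2 -1.86 ± 0.37). The uptake carrier Slc10a1 (NTCP) stood at 1523, 1270.0 and 1048 and 351, 405 and 674 CPM (log2 -1.43 ± 0.28). Each fell in every OA liver, and OA replicate 3 kept the highest level of the 3. Cyp8b1 held, whereas Cyp7b1 was lost without OA replicate 1 and Slc10a1 without OA replicate 1 or 2. Cyp7a1, the rate-limiting enzyme of the classical pathway, stood at 204, 271 and 185 CPM in chow and 102, 142 and 169 with OA and was not called (log2 -0.68 ± 0.3, adjusted p = 0.173). Cyp2c70, which makes muricholic acids in mice, rose by 1.15, as did the basolateral exporter Abcc4 (0.95), and neither of these calls held without OA replicate 2.

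Of 20 drug metabolism genes, 1 rose and 2 fell with all 6 libraries (15% called, against 8.56% of all genes tested). The median was -0.37, or 0.02 with library size alone. Without OA replicate 3, 1 rose and 8 fell, where 15% of all genes tested were called. The gene that rose was Cyp3a11, the main xenobiotic oxidase of the mouse family, at 1985, 1484 and 701 CPM in chow and 4407, 5065 and 2809 with OA (log2 1.56 ± 0.38, adjusted p = 0.0248). The sulfotransferases Sult1a1 and Sult2a8 fell by 0.95 and 1.67 (adjusted p = 0.0354 and 0.049). Sult2a8 stood at 1482, 2181 and 1187 CPM in chow and 254, 278 and 995 with OA, with replicate 3 just below the lowest chow liver. None of these 3 calls held, and each was lost without OA replicate 1 or 2.

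Growth hormone acts on the liver in pulses in male mice and sets many of its sex-biased genes through STAT5. Of 18 genes of this axis 6 fell, against 2.23% of all genes tested, and 0 rose (median -1.04, or -0.65 with library size alone). Without OA replicate 3, 12 fell, as did 832 of all 14853 genes tested. Slco1a1 stood at 372, 541 and 395 CPM in chow and 26.4, 17.5 and 131 with OA (log2 -2.91 ± 0.58, adjusted p = 0.00986, or 2.33e-05 without OA replicate 3). The major urinary protein Mup3 averaged 2498 ± 1535 CPM with OA (SD, n = 3) and fell by 2.00 (adjusted p = 0.00844), although reads of the near-identical Mup genes cannot be assigned with certainty. The feedback inhibitor Socs2, a direct STAT5 target, stood at 25.7, 18.1 and 44.4 CPM in chow and 13.1, 7.95 and 10.8 with OA (adjusted p = 0.0312). Igf1, the hormone made under this signal, stood at 1205, 1059 and 988 CPM in chow and 442, 424 and 748 with OA. It was not called with all 6 libraries (adjusted p = 0.0544). On leaving out 1 library the adjusted p ran from 0.0123, without OA replicate 3, to 0.216. Hsd3b5, Slco1a1 and Mup3 held, and Socs2 was lost without OA replicate 1 or 2 or chow replicate 1 or 3, and with library size alone.

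More genes of hepatocyte identity and nitrogen metabolism were called without OA replicate 3. The same was true over all genes tested (8.56% with it and 15% without). Of 18 genes of secreted proteins and liver transcription factors 2 fell with all 6 libraries (11.1% called, median -0.60, or -0.18 with library size alone), and 9 without OA replicate 3. Albumin took 9.34%, 9.50% and 7.91% of counts in chow and 5.01%, 5.40% and 7.07% with OA, a log2 change of -1.02 ± 0.28 (adjusted p = 0.0414) on the TMM scale. Its call was lost on leaving out chow replicate 1 or 2 or OA replicate 1 or 2, with no filter on low counts, and with only the 2 groups in the fit. Serpina1a, an alpha-1 antitrypsin copy with near-identical neighbours, fell by 1.08 (adjusted p = 0.0241). Of 15 genes of the urea cycle and amino acid breakdown 1 rose and 1 fell (13.3% called, median -0.89, or -0.50 with library size alone). Without OA replicate 3, 1 rose and 8 fell. Argininosuccinate lyase (Asl) stood at 907, 477 and 671 CPM in chow and 198, 219.7 and 358 with OA (log2 -1.41 ± 0.3, adjusted p = 0.0142). Glutamine synthetase (Glul), the enzyme of the last row of hepatocytes around the central vein, stood at 721, 876 and 859 and 1525, 1394 and 1465 CPM and rose by 0.84 ± 0.2 (adjusted p = 0.0204), alike in all 3 OA livers. The calls of Serpina1a, Asl and Glul were lost without OA replicate 1 or 2 or chow replicate 1. That of Serpina1a was also lost without chow replicate 3, and that of Glul without chow replicate 2. Cps1, the entry step of the urea cycle, stood at 5684, 4223 and 3829 CPM in chow and 1465, 1760.0 and 3308 with OA. It was not called with all 6 libraries (adjusted p = 0.0553). On leaving out 1 library the adjusted p ran from 0.00484, without OA replicate 3, to 0.229.

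Of 21 genes of the NRF2 antioxidant response 6 rose and 0 fell (28.6% called, against 8.56% of all genes tested, median 0.50). The glutathione transferase Gstm3 stood at 4.21, 2.75 and 3.46 CPM in chow and 53.9, 57.3 and 26.4 with OA (log2 3.76 ± 0.48, adjusted p = 0.00206). Gsta1 stood at 0, 0.482 and 0.128 and 9.12, 10.2 and 3.97 CPM (log2 4.97 ± 0.71). Both belong to families of close copies, so reads may be split among them. Srxn1 (sulfiredoxin), which restores peroxiredoxins, stood at 39.8, 44.9 and 48.1 CPM in chow and 101, 85.9 and 64.8 with OA (log2 0.92 ± 0.19, adjusted p = 0.0125). Of the usual markers of the pathway, Nqo1 and Hmox1 were not called with all 6 libraries. Nqo1 stood at 12.2, 11.3 and 8.196 CPM in chow and 20.1, 17.8 and 12.2 with OA (adjusted p = 0.0919, or 0.0342 without OA replicate 3). Haem oxygenase Hmox1 stood at 12.3, 14.2 and 32.3 and 38.02, 41.1 and 30.4 CPM (adjusted p = 0.0701, or 0.0527 without OA replicate 3), and DESeq2 called it. The other 3 genes that rose were Gstm1 (0.99), the carbonyl reductase Cbr3 (3.05) and the cystine carrier Slc7a11, which had 1 count in chow. Gstm3 and Gsta1 held, and Srxn1 was lost without chow replicate 1, OA replicate 1 or OA replicate 2. Cbr3 was lost without those libraries or chow replicate 2, and Slc7a11 without any 1 library other than OA replicate 3.

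Acute phase genes rose in 7 of 19 and fell in 0 (36.8% called, against 8.56% of all genes tested, median 0.46). Without OA replicate 3, 8 rose. Lcn2 (lipocalin 2), which withholds iron from bacteria (ENSMUSG00000026822, chromosome 2, 32384633 to 32388252), stood at 12.5, 12.2 and 25.4 CPM in chow and 608, 434 and 71.05 with OA (log2 4.46 ± 0.65, adjusted p = 0.00295). The orosomucoid Orm3 stood at 6.86, 4.82 and 3.97 and 29.1, 33.98 and 29.7 CPM (log2 2.61 ± 0.3, adjusted p = 0.000972). Steap4, a metalloreductase induced by inflammation, stood at 132, 116 and 118 and 444, 337 and 234 CPM (log2 1.47 ± 0.23, adjusted p = 0.00456). Orm3 was level across the OA livers, while Lcn2 was far lower in replicate 3 than in the other OA livers. Serum amyloids Saa1, Saa2 and Saa3 and Orm2 rose by 2.12, 2.88, 2.00 and 2.77. Saa and Orm genes have close copies, and their split of reads is uncertain. The calls named here held except those of Saa1 and Saa3, both lost without OA replicate 1, and Saa1 also without OA replicate 2 or chow replicate 1 or 3.

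Called shares of the chaperone and immediate early lists lay near the 8.56% of all genes tested, and that of glucose metabolism above it, at 35%. Of 17 chaperone and unfolded protein response genes 1 rose, the small heat shock protein Hspb1 (4.68, 6.19 and 11.1 against 41.7, 31.3 and 20.5 CPM, log2 2.04 ± 0.43, adjusted p = 0.0127), and 1 fell, Hsph1 (-0.89). Of 11 immediate early genes Klf6, a zinc finger factor of injured liver, rose from 9.202, 10.9 and 15.4 CPM in chow to 54.7, 42.2 and 28.4 with OA (log2 1.8 ± 0.32, adjusted p = 0.00696). The hormone Fgf21 stood at 6.24, 3.097 and 4.74 CPM in chow and 13.7, 7.89 and 4.76 with OA (adjusted p = 0.25). In glucose metabolism 4 of 20 genes rose and 3 fell (median -0.34, or 0.08 with library size alone). The rises included hexokinases that hepatocytes hardly use, Hk2 (1.404, 1.51 and 2.05 against 11.5, 9.28 and 3.97 CPM, log2 2.29 ± 0.37) and Hk3 (1.52), and the pyruvate kinase of non-hepatocyte cells, Pkm (1.53). Glycogen synthase Gys2 stood at 622, 546 and 522 CPM in chow and 231, 184 and 309.5 with OA (log2 -1.22 ± 0.26), and Fbp1 fell by 0.79, a call that was lost with library size alone. Klf6, Hk2, Hk3 and Pkm held, and the other calls named here were lost without chow replicate 1 or OA replicate 1.

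Mitochondrially encoded transcripts took 14.3%, 10.7% and 14.5% of counts in chow and 8.43%, 8.08% and 8.57% with OA, so the groups did not overlap. The vehicle livers, on the same diet, took 6.63%, 7.22% and 14.25%, the last within the chow range. Of the 13 genes tested 1 was called, mt-Co1 (-1.06 ± 0.29, adjusted p = 0.041), and its call was lost with library size alone, with only the 2 groups in the fit, and on leaving out any 1 library except OA replicate 3. None of 16 clock genes and none of 6 red cell genes was called by edgeR or DESeq2 with all 6 libraries, with 2 and 1 of them at an unadjusted p under 0.05. The lowest p among clock genes was that of Clock (log2 -0.43, adjusted p = 0.0919). Among red cell genes it was that of Alas2 (-0.62, adjusted p = 0.111, or 0.0111 without OA replicate 3). Cfd (adipsin), a product of fat cells, stood at 4.21, 3.72 and 2.43 CPM in chow and 9.53, 18.5 and 81.2 with OA (adjusted p = 0.0139), highest in OA replicate 3 and lost without any 1 chow library. The defining adipocyte gene Adipoq had 4 counts in chow and 1 with OA, and the pancreatic genes had too few reads to be tested.

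The distance of OA replicate 3 from chow was compared with that of the other OA livers. Of the 1238 called genes it was the OA liver nearest the chow mean in 1076 (86.9%), against 86 for replicate 1 and 76 for replicate 2. In all genes tested these shares were 55.3%, 20.7% and 24% for replicates 3, 1 and 2. The median distance of called genes from the chow mean was 1.59, 1.53 and 0.86 on the log2 scale in OA replicates 1, 2 and 3. By list, the median difference from chow was 3.23, 3.09 and 1.27 for recruited macrophages and 2.12, 1.63 and 0.48 for matrix glycoproteins. It was 2.27, 1.23 and -0.10 for cholangiocyte genes, and -1.30, -1.67 and -0.51 for the growth hormone axis. It was -0.86, -0.93 and -0.98 for cholesterol synthesis, 0.51, 0.49 and 0.47 for antioxidant genes, and -0.82, -0.71 and -0.84 for mitochondrially encoded genes. These medians do not describe each gene, since Gstm3, Gsta1, Srxn1, Tm7sf2, Stard4 and Hsd17b7 were each nearest chow in OA replicate 3, and differences between lists were not tested. Its depth (17379756 counts) and mitochondrial share (8.57%) were those of the other OA libraries, and what set it apart was not tested.

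**Figure D5:**
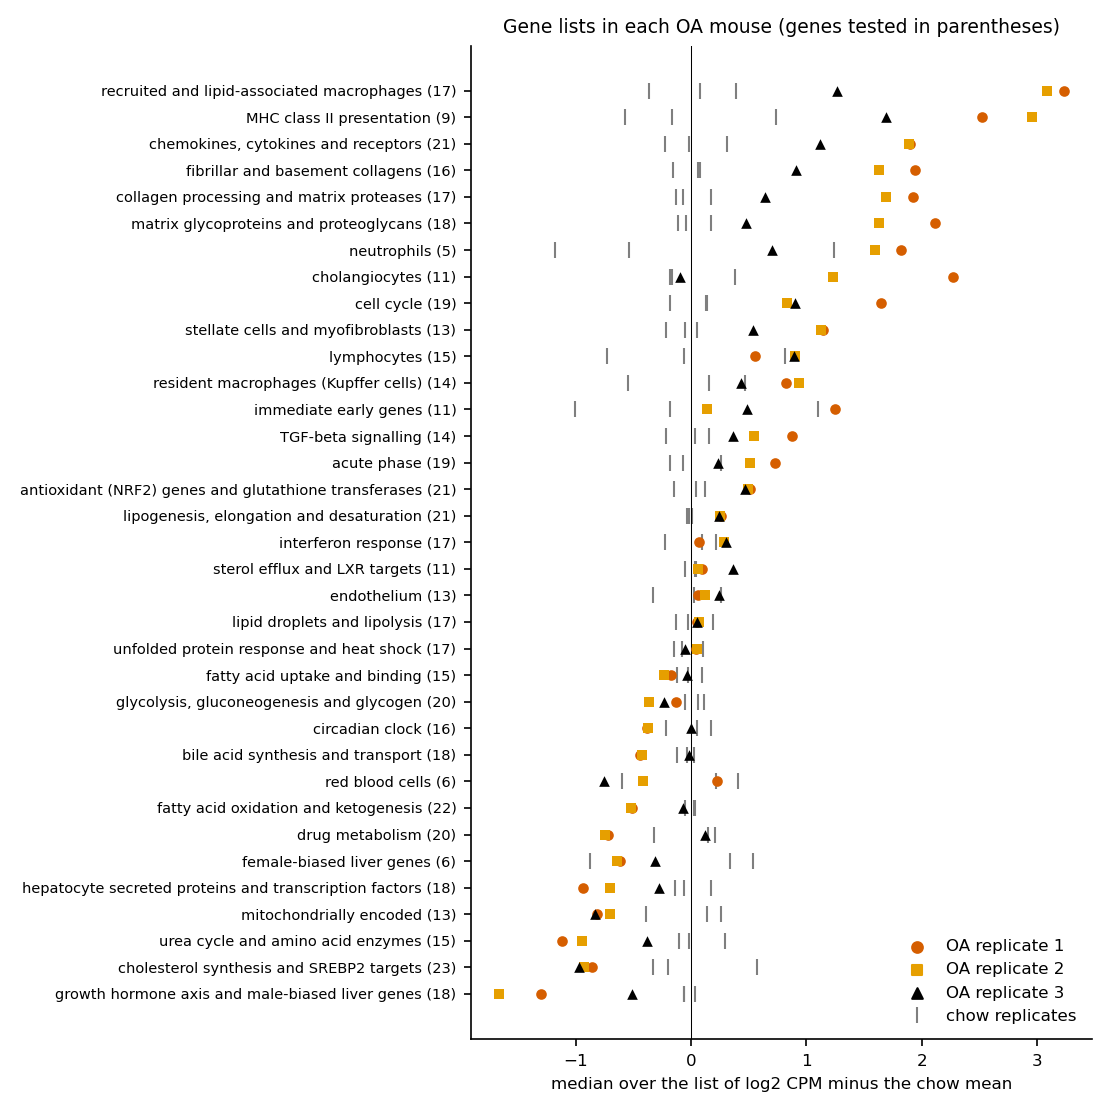
For each gene list with at least 5 tested genes, the median over its genes of log2 CPM minus the chow mean is shown in OA replicates 1 (circle), 2 (square) and 3 (triangle), with chow replicates as grey ticks. OA replicate 3 lies nearer 0 in the matrix, macrophage, cholangiocyte and growth hormone lists (0.48 for matrix glycoproteins) and beside the other OA mice in cholesterol synthesis (-0.98) and antioxidant genes (0.47).

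Most genes called with OA were also called with vehicle. Vehicle against chow called 2786 genes (19.3%), and 1136 genes were called in both comparisons, all in the same direction. These are 91.8% of the OA calls and 40.8% of the vehicle calls, and both comparisons use the same chow livers. The log2 fold changes over chow stood side by side as follows: 7.75 with OA and 7.56 with vehicle for Gpnmb, 4.45 and 5.05 for Col1a1, 3.85 and 4.16 for Cidea, and -1.5 and -1.32 for Tm7sf2. Tested directly between the OA and vehicle groups, no gene of 14469 was called (0%, edgeR, lowest adjusted p = 0.975), with 564 genes at an unadjusted p under 0.05 (3.9%). DESeq2 also called 0, with 532 at an unadjusted p under 0.05. A lack of calls with 3 mice per group does not show that the groups were alike.

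Of the 1238 OA calls, 102 were not called with vehicle, which by itself shows no difference between them. Cxcl1, a neutrophil attractant, stood at 15.1, 13.6 and 19.7 CPM with OA and 7.08, 9.11 and 5.11 with vehicle, against 4.21, 10.2 and 8.39 in chow. Its difference between OA and vehicle was 1.19 on the log2 scale, with an adjusted p of 0.975. Its call over chow was lost without any 1 library other than chow replicate 2. Steap4 stood at 138, 183 and 235 CPM with vehicle, a difference of 0.87 (adjusted p = 0.975). Both were higher with OA than in chow in every liver, yet neither passed the test against vehicle. In the other direction, Hsd3b5 stood at 0.186, 0.213 and 0.211 CPM with vehicle, so its higher mean with OA came from OA replicate 3, and Cd163 stood at 0.979, 0.639 and 0.296 CPM with vehicle (adjusted p = 0.975 and 0.975 between OA and vehicle).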

How the data were processed

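Liver RNA of 12 mice in 4 groups of 3 was sequenced as paired reads of 76 bases from KAPA mRNA HyperPrep libraries, per the labels' protocols. Per the submitters' processing notes, the tools were HTSeq, HISAT2 2.1.0, Trimmomatic 0.35 and SAMtools 1.2, with the build GRCm38. The sources used here do not give the annotation release or the strand setting. The authors deposited whole-number counts per gene, and 0 columns were left unmapped. The 69 identifiers without a symbol held 0.0143% of counts. No 2 libraries of the same group agreed within sampling noise, and pairs across groups were not checked. Genes passing edgeR's default filter (minimum count 10, minimum total 15) entered 1 quasi-likelihood fit over all 12 libraries (edgeR 4.0.16, R 4.3.3, TMM scaling, 1 coefficient per group), with Benjamini-Hochberg adjustment over 14469 genes and calls at 0.05. The SE was taken as the size of the log2 fold change over the root of F, and the biological coefficient of variation was 0.226. No fold is given at 4 or fewer counts over a group. On simulated data, 59 of 100 genes changed by 1 and 95 of 100 changed by 2 on the log2 scale were called. Beside these there were 11 false calls, among 14161 genes in all. Spread followed the fitted trend, 200 genes were changed, and each simulated OA library had the same change. No simulated library stood apart as OA replicate 3 did, so these rates may not carry over to the OA group. Alternatives were RLE factors, library size alone, no filter, only the 2 groups, each library left out and DESeq2 1.42.0. The compared groups, the 37 gene lists (577 of 584 genes found, 546 tested) and the genes described were chosen with earlier results of these data known. Named are the 10 largest rises and falls (mean of at least 1 CPM, no overlap between groups, 86 calls with predicted or repeated-family names passed over), the 3 lowest-p called members of each list, further members as values, and 15 genes given in any case. Some genes that this rule names are not reported here.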

Additional observations from a re-analysis of the deposited data

How the results depend on the processing

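Of the genes called between OA and chow, 1238 in all with 916 higher and 322 lower, library size alone called 3776 (3649 and 127), the fit of only the 2 groups 776 (572 and 204), and DESeq2 1882 (1252 and 630). With RLE factors the count was 1228 and with no filter on low counts 1401. Leaving out 1 library gave 347 to 2232 calls, 288 to 1400 higher and 57 to 832 lower. Of the 546 tested list members 171 were called, against 263 with library size alone and 80 to 241 on leaving out 1 library. No gene was called between OA and vehicle under any setting run. Of 177 called genes that the lists or the largest changes hold, 75 were called under all 11 alternatives, library size alone lost 16 and the fit of only the 2 groups lost 43. The 1 reversal was in the immediate early gene Jun, not called with all 6 libraries (-0.06 on the log2 scale), which was called at 1.69 without chow replicate 3, its values running from -0.49 to 1.69 on leaving out 1 library; the summed level of the 11 immediate early genes in chow replicate 3, 351.7 CPM, was the highest of the 6 libraries, and its part in the reversal was not tested. No paired analysis was possible because each animal has its own ear tag and replicate numbers only follow the order of deposit. Depth limits the low genes: chow replicate 1 had 8462590 counts, the fewest, and genes at a few counts in chow, such as Timp1 and Gipc2, have no usable fold.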

Other observations

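Of the 102 genes called with OA but not with vehicle, each against the same chow mice, 15 had an unadjusted p under 0.05 between the 2 NASH groups, a count that the way the 102 were chosen favours. In the following genes of the 15, chosen after their values were seen, each OA liver lay beyond each vehicle liver and each chow liver. Prg4, a lubricating glycoprotein that liver also secretes, stood at 17.5, 33.9 and 29.3 CPM in chow, 51.6, 75.6 and 47.9 with OA and 38.4, 36.8 and 39.6 with vehicle. Slc11a2, the iron carrier DMT1, stood at 21.7, 15.7 and 16.3 CPM in chow, 38.4, 28.4 and 28.96 with OA and 26.2, 22.3 and 23.6 with vehicle. Cav1, the coat protein of caveolae, was lower, at 7.02, 8.95 and 8.58 CPM in chow, 4.18, 1.897 and 3.37 with OA and 4.52, 4.53 and 9.34 with vehicle. None passed the test between OA and vehicle, where the lowest adjusted p of all genes was 0.975.

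Chow replicate 1 stood apart among the controls in sterol synthesis. Its median over the 23 genes lay 0.57 above the chow mean on the log2 scale, while chow replicates 2 and 3 lay at -0.33 and -0.21. It was also the shallowest library, with 8462590 counts. Tm7sf2, Stard4 and Hsd17b7, chosen after their values were seen, were close among the 3 chow livers, chow replicate 1 included, and higher in each of them than in any OA liver.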
